A study of Mus musculus with 6 samples.

Results

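The genes that encode collagen chains were described in cultured macrophages with and without the transcription factor c-Maf. The members were all non-control probes of the array whose gene name had the form Col, a number, a and a number. This gave 69 probes for 44 genes, and each gene was read from its probe of highest mean processed intensity. Of these 44 genes, 26 had a brightest probe well above background on at least 2 arrays, the filter that also kept 20246 of 34760 genes and unnamed features of the whole array. The kept share was 59.1% of the collagen genes and 58.2% of all genes.

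The macrophages were derived from c-Maf KO fetal liver (c-Maf KO, n = 3) or, as controls, from WT fetal liver (WT, n = 3). The series asks what c-Maf controls in macrophages, and names both as M2-like BMM of fetal liver chimeric mice, with liver as the tissue. Dissociated fetal liver and bone marrow cells were seeded with M-CSF, the growth factor of macrophages, at 10 ng/ml, and M-CSF was added daily from day 4. In such chimeras blood-forming cells are of donor origin and stromal cells mostly of host origin, and the labels do not say which tissue of which animal gave each culture. They name no sort, and strain, age, the deleted part of Maf and any pooling of mice are not given in the sources used here. Nothing says that replicates came from separate mice, so all p-values refer to variation among these cultures, possibly technical in origin.

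RNA was hybridised to 1-colour Agilent arrays. Scanner files of 5 arrays were used, and c-Maf KO replicate 1 was read from the deposited table of ratios, so its detection flags were not analysed here. Each array had 48.9% to 50.5% of its probes well above background, and precision is limited by how few arrays there are. The log2 ratio of Maf, the targeted gene, lay between -2.36 and -1.92 in the c-Maf KO cultures and between 1.92 and 2.03 in the WT cultures. All 11 macrophage markers on the list were well above background on all 5 arrays.

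Collagens are secreted or membrane-anchored proteins whose chains wind around each other in a helix with glycine at regular intervals. Fibroblasts and other mesenchymal cells make most fibrillar collagen. Type I, III and V collagens form the fibrils of connective tissue, type IV collagens form the sheets of basement membranes, type VI collagen forms beaded filaments around cells, and the fibril-associated collagens decorate the surface of fibrils. Macrophages take up and degrade collagen, and expression of some chains, among them those of type VI and type VIII, has been described in macrophages themselves.

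Promoter windows from RefSeq (build GRCm38.p6, 250 bases before to 50 after a start site) matched 35 of the 44 genes and 21 of the 26 kept genes, whose windows numbered 24. The 120 bases before the start are shown for chains of collagens I, III and VI as examples. Their cultures did not overlap between genotypes and each window holds a motif searched. This also held for Col4a2, Col5a1 and Col16a1, which are not shown. The capitals mark motifs searched on both strands. These were the CCAAT box, the TATA box written as TATAAA, the outer part of the Maf recognition element written as TGCTGA, and the AP-1 site written as TGACTCA, which is also the centre of the longer Maf element.
Col1a2 (chr6:4505498-4505617, plus strand): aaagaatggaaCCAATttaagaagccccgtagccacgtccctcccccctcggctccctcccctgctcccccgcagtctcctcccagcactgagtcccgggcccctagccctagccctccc
Col3a1 (chr1:45311418-45311537, plus strand): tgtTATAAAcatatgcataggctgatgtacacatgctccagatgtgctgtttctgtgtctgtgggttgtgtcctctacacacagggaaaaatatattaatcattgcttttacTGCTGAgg
Col6a1 (chr10:76726045-76726164, minus strand): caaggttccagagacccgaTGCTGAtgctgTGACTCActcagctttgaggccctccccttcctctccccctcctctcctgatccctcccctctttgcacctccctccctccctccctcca
In these windows Col1a2 had CCAAT, Col3a1 had TATAAA and TGCTGA, and Col6a1 had TGCTGA and TGACTCA. The Maf and AP-1 motifs share bases where they overlap inside the longer element, which is not the case in these windows. Over the full 300-base windows, CCAAT stood in 10 of the 24 of kept collagen genes, against 37.4% of all 32851 windows in the table. TATAAA stood in 2 of 24 against 13.6%, TGCTGA in 4 of 24 against 19.5%, and TGACTCA in 1 of 24 against 5.20%. The longer Maf element stood in 0 of 24, and in 1 of all 32851 windows. Such a match is a description of the letters in the window only.

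No collagen gene passed the test over all genes. With limma and a Benjamini-Hochberg adjusted p under 0.05, 0 of 26 were called on the 6 samples and 0 of 26 on the 5 arrays, where 0.0346% of all genes were called in each. At an unadjusted p under 0.05, 15 of 26 were higher in c-Maf KO and 0 lower on the 6 samples, against 6.68% and 5.86% of all genes. On the 5 arrays 10 of 26 were higher at an unadjusted p under 0.05 and 0 lower, against 5.38% and 5.65% of all genes. Both counts include Col5a3 and Col5a2, tested on WT signals wholly or partly not well above background. Among the 20 collagen genes well above background on all 5 arrays, the counts were 13 on the 6 samples and 8 on the 5 arrays. The same fit with a variance trend and robust estimation also called 0 of 26. All values below are on the log2 scale as c-Maf KO minus WT unless called a signal, and the relative signal is the processed intensity divided by the array's 75th percentile.

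The difference was above 0 in 19 of the 26 genes, against 50.7% of all genes, and the 26 fell into 2 sets by size. In 15 genes the measured difference was between 0.75 and 1.29, and in the other 11 between -0.44 and 0.37. A difference of at least 0.7 towards c-Maf KO was thus seen in 57.7% of kept collagen genes, against 2.62% of all genes, and one as large towards WT in 0.706% of all genes. The value of 0.7 was set after the gap was seen. Among the 15, Col5a3 passed the filter through its c-Maf KO arrays only. Its difference rests on WT signals not well above background, as that of Col5a2 does in part. The median over the 26 genes was 0.76, against 0.0018 over all genes. Over the 20 collagen genes well above background on all 5 arrays it was 0.78. In 14 of the 26 every c-Maf KO culture was above every WT culture, which held for 11.1% of all genes, and in none were they all below, which held for 8.86%.

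**Figure D1:**
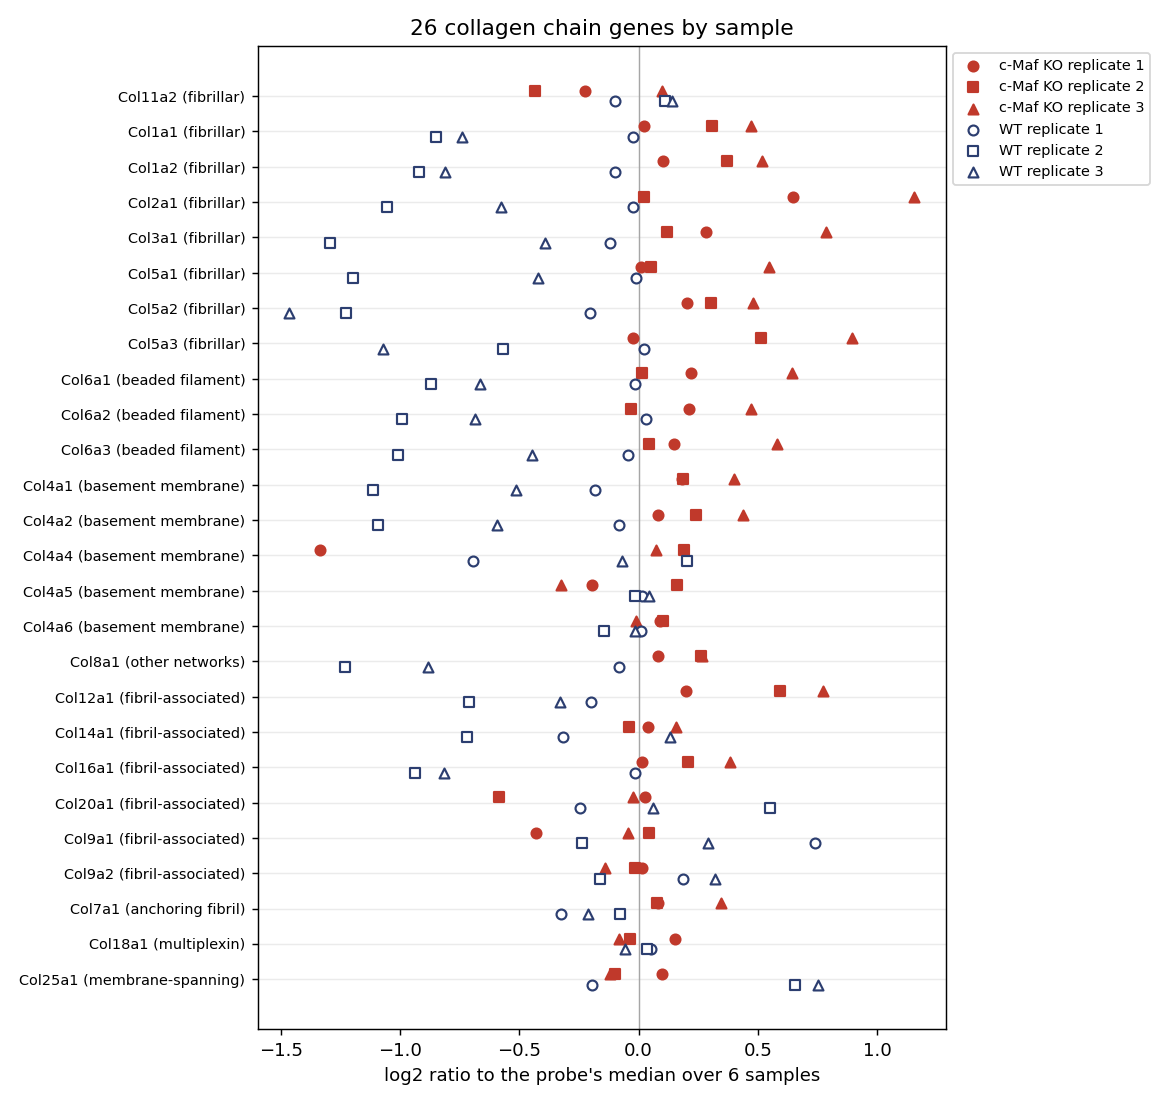
Log2 ratio of each sample to the probe's median over the 6 samples (x axis) for the 26 kept collagen chain genes (y axis, with their class). Red filled symbols are the 3 c-Maf KO cultures and open blue symbols the 3 WT cultures. In most fibrillar and collagen VI chains, WT replicate 1 lies next to the c-Maf KO cultures and WT replicates 2 and 3 lie apart at lower values, while Col4a5, Col4a6 and Col18a1 hold all 6 cultures close together.

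Type I collagen, the main fibril of bone, tendon and skin, is built from the chains of Col1a1 and Col1a2. The Col1a1 probe (chromosome 11, 94813115 to 94813174, mm9) had relative signals in c-Maf KO replicates 1 to 3 of 10.7, 13.0 and 14.5, against 10.3, 5.82 and 6.28 in WT replicates 1 to 3. Values of other genes follow the same order of replicates. WT replicate 1 lay just under the lowest c-Maf KO culture, and the groups did not overlap. The ratio of c-Maf KO to WT geometric means, taken on the log2 scale, was 1.75 (log2 difference 0.80, SE 0.24, limma adjusted p = 0.282). Col1a2 (chromosome 6, 4490619 to 4490678) measured 29.9, 36.0 and 39.9 in c-Maf KO against 26.0, 14.7 and 15.9 in WT. It showed the same order of cultures, at a ratio of 1.92 (0.94, SE 0.24, limma adjusted p = 0.233). The log2 ratios of both genes differed by at most 0.078 in any culture.

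Type III collagen forms fine fibrils in vessels and soft organs. Col3a1 (chromosome 1, 45405589 to 45405648) had relative signals of 0.545, 0.487 and 0.773 in c-Maf KO and 0.412, 0.183 and 0.341 in WT. The groups did not overlap, WT replicate 2 was lowest, and the mean difference was 1.00 (SE 0.34, limma adjusted p = 0.320). Col2a1, the main chain of cartilage fibrils (chromosome 15, 97806071 to 97806130), measured 1.41, 0.915 and 2.01 in c-Maf KO and 0.886, 0.433 and 0.604 in WT. Its difference of 1.16 had a 95% interval of 0.27 to 2.05 (limma adjusted p = 0.293), and c-Maf KO replicate 2 and WT replicate 1 nearly met.

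Type V chains sit inside type I fibrils and start their assembly. Col5a1 (chromosome 2, 27892892 to 27892951) measured 0.916, 0.944 and 1.33 in c-Maf KO against 0.904, 0.397 and 0.681 in WT. The gap between c-Maf KO replicate 1 and WT replicate 1 was 0.019 log2 units, and the interval of the difference, -0.040 to 1.53, included 0. Col5a2 (chromosome 1, 45431204 to 45431263) lies next to Col3a1, with no other protein-coding gene between them in RefSeq. Its relative signals were 0.0993, 0.106 and 0.120 in c-Maf KO and 0.0749, 0.0368 and 0.0313 in WT, with no overlap, and it was well above background on both c-Maf KO arrays and 1 of the 3 WT arrays. Its measured difference of 1.29 (SE 0.33, limma adjusted p = 0.232) thus rests in part on WT signals not well above background, in replicates 2 and 3. The log2 ratios of Col3a1 and Col5a2 differed by up to 1.07, in WT replicate 3. Col5a3 was well above background on both c-Maf KO arrays and on none of the WT arrays. c-Maf KO replicates 2 and 3 were therefore at least 1.80-fold higher (limma adjusted p = 0.374 on the 5 arrays), where the lower group was set, per array, to the higher of its own signal and the lowest signal well above background. In the deposited ratios, c-Maf KO replicate 1 (-0.021) lay below WT replicate 1 (0.021), so the groups overlapped there. Col11a2, a cartilage fibril chain, measured -0.24 (SE 0.15, limma adjusted p = 0.549), and its groups overlapped.

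Type VI collagen was measured through all 3 of its classical chains. Col6a1 (chromosome 10, 76171538 to 76171597) had relative signals of 4.84, 4.20 and 6.49 in c-Maf KO and 4.11, 2.27 and 2.62 in WT. Col6a3 (chromosome 1, 92663663 to 92663722) had 2.00, 1.86 and 2.70 in c-Maf KO and 1.75, 0.896 and 1.32 in WT. In both genes all c-Maf KO cultures were above all WT cultures, with c-Maf KO replicate 2 and WT replicate 1 nearest to each other. Col6a2 (chromosome 10, 76058931 to 76058990) had 0.679, 0.573 and 0.812 in c-Maf KO and 0.599, 0.295 and 0.365 in WT, so that WT replicate 1 lay above c-Maf KO replicate 2. The differences were 0.81, 0.76 and 0.76 for Col6a1, Col6a2 and Col6a3 (limma adjusted p = 0.305, 0.353 and 0.340). Col6a1 and Col6a2 are neighbours on chromosome 10, and their log2 ratios differed by at most 0.17 in any culture. A dimmer Col6a2 probe was well above background on both c-Maf KO arrays and on no WT array, so it passed the filter through c-Maf KO only. With WT bounded as for Col5a3, c-Maf KO replicates 2 and 3 were higher by at least 1.26-fold there. The 6-sample fit of this probe (limma adjusted p = 0.196 over probes) used WT signals not well above background. Col6a4, Col6a5 and Col6a6, chains of more restricted expression, were well above background on no array.

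Among the basement membrane chains, Col4a1 and Col4a2 were set apart from the rest. These genes form the collagen IV of nearly all basement membranes and run in opposite directions on chromosome 8. Their RefSeq starts are at 11312826 on the minus strand for Col4a1 and 11312805 on the plus strand for Col4a2 (GRCm38.p6). These starts are 21 bases from each other, and as annotated the genes overlap there rather than leaving a gap. Col4a1 (chromosome 8, 11199009 to 11199068, mm9) had relative signals of 0.671, 0.673 and 0.780 in c-Maf KO and 0.521, 0.274 and 0.414 in WT. Col4a2 (chromosome 8, 11448840 to 11448899) had 0.671, 0.751 and 0.860 in c-Maf KO and 0.600, 0.297 and 0.420 in WT. The groups did not overlap in either gene, and WT replicate 2 was lowest in both. The differences were 0.86 (SE 0.23, limma adjusted p = 0.259) and 0.84 (SE 0.26, limma adjusted p = 0.285), and the log2 ratios of the pair differed by at most 0.10 in any culture.

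The collagen IV chains of restricted tissues did not share this pattern. Col4a5 had relative signals of 0.197, 0.253 and 0.181 in c-Maf KO and 0.229, 0.224 and 0.233 in WT. Col4a6 had 0.448, 0.451 and 0.418 in c-Maf KO and 0.424, 0.381 and 0.417 in WT. The groups overlapped in both, with differences of -0.13 (95% interval -0.45 to 0.18) and 0.11 (-0.061 to 0.28). Col4a5 and Col4a6 are neighbours on the X chromosome, and their log2 ratios differed by up to 0.31. A second Col4a6 probe, dimmer and well above background on 4 arrays, measured -1.02 (SE 0.41, limma adjusted p = 0.403 over probes), so the probes of this gene disagreed in sign. Col4a4 had 0.0393, 0.113 and 0.104 in c-Maf KO and 0.0614, 0.114 and 0.0945 in WT. Its difference was -0.17 with c-Maf KO replicate 1, its lowest culture, and 0.32 on the 5 arrays without it. Col4a3 was well above background on no array.

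Col8a1, a short network-forming chain of vessel walls (chromosome 16, 57624471 to 57624530), had relative signals of 0.237, 0.269 and 0.269 in c-Maf KO and 0.212, 0.0955 and 0.122 in WT. The groups did not overlap, and the difference was 0.93 (SE 0.29, limma adjusted p = 0.286). Col7a1 forms the anchoring fibrils below epithelia. It had 0.365, 0.365 and 0.439 in c-Maf KO and 0.276, 0.327 and 0.298 in WT, a difference of 0.37 (SE 0.11, limma adjusted p = 0.266). The groups did not overlap, and here WT replicate 1 was the lowest WT culture, unlike in the 15 genes of larger difference.

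Of the fibril-associated chains, Col12a1 and Col16a1 went with the fibrillar ones. Col12a1 (chromosome 9, 79446895 to 79446954), a chain on the surface of type I fibrils, had relative signals of 0.296, 0.389 and 0.441 in c-Maf KO and 0.225, 0.157 and 0.205 in WT. The groups did not overlap, and the lowest adjusted p among the 26 genes was measured here (0.94, SE 0.19, limma adjusted p = 0.192). Col16a1 (chromosome 4, 129776333 to 129776392) had 1.26, 1.43 and 1.62 in c-Maf KO and 1.23, 0.648 and 0.705 in WT, with c-Maf KO replicate 1 and WT replicate 1 0.031 log2 units apart. Its difference was 0.79 (SE 0.26, limma adjusted p = 0.304), and a second probe measured 0.98.

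The cartilage chains Col9a1 and Col9a2 did not go with them. Col9a1 had relative signals of 0.0624, 0.0867 and 0.0815 in c-Maf KO and 0.140, 0.0712 and 0.103 in WT. Col9a2 had 0.164, 0.161 and 0.147 in c-Maf KO and 0.184, 0.145 and 0.202 in WT. Both overlapped between groups, at -0.41 (95% interval -1.05 to 0.24) and -0.16 (-0.48 to 0.16). Col14a1, another chain of the fibril surface, measured 0.35 (-0.16 to 0.87) and Col20a1 -0.32 (-0.93 to 0.30), each well above background on some arrays only. A second Col20a1 probe measured 0.0085.

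Col18a1 encodes a basement membrane collagen from which endostatin is cut. It had relative signals of 1.68, 1.48 and 1.43 in c-Maf KO and 1.57, 1.55 and 1.45 in WT. The groups overlapped, and the difference of 0.00097 had a 95% interval of -0.20 to 0.20, which excludes differences as large as in the 15 genes of the first set. A second Col18a1 probe measured 0.0037. Col25a1, a membrane-spanning chain, was well above background on no c-Maf KO array and on 2 of the 3 WT arrays, so it passed the filter through WT only. Its relative signals were 0.0476, 0.0416 and 0.0409 in c-Maf KO and 0.0388, 0.0701 and 0.0750 in WT. The groups overlapped, with WT replicate 1 the lowest of all cultures. The WT mean was higher by at least 1.14-fold on the 5 arrays (limma adjusted p = 0.607), which does not hold for WT replicate 1.

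**Figure D2:**
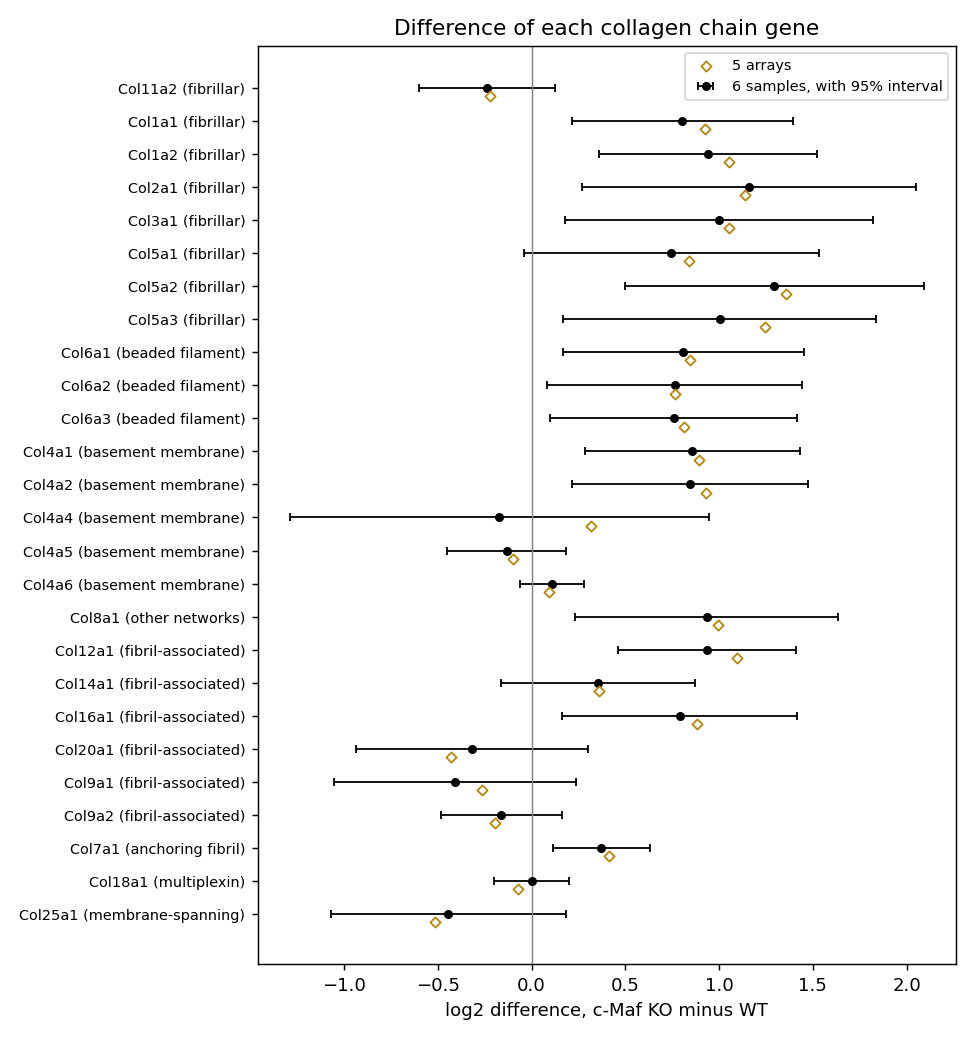
Log2 difference, c-Maf KO minus WT (x axis), of the 26 kept collagen chain genes (y axis). Dots with bars are the 6-sample values with their unadjusted 95% intervals, and open diamonds the values of the 5 arrays. The interval included 0 in 11 of the 26 genes, and Col4a4 is the gene whose dot and diamond lie on opposite sides of 0 beyond 0.1.

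The remaining 18 genes did not pass the filter. Of these, 14 were well above background on no array: Col4a3, Col6a4, Col6a5, Col6a6, Col9a3, Col11a1, Col13a1, Col15a1, Col17a1, Col19a1, Col22a1, Col24a1, Col27a1 and Col28a1. A further 4 were well above background on 1 array: Col8a2, Col10a1, Col23a1 and Col26a1. No difference is given for them.

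Collagen signal also differed between cultures of the same genotype. WT replicate 1 was the highest WT culture in 18 of the 26 genes, against 33.0% of all genes, and in all 15 genes with a difference of at least 0.7. WT replicate 1 was highest and WT replicate 2 lowest in 15 of the 26, against 14.8% of all genes. Among the c-Maf KO cultures, replicate 3 was highest in 18 of the 26 and in all 15 of larger difference, against 24.6% of all genes. In 20 of the 26 the range within WT was larger than the difference between genotypes, as in 71.4% of all genes, and this held for 11 of the 15.

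For these 15 genes, WT replicate 1 was 0.32 to 1.14 log2 units above the mean of WT replicates 2 and 3, with a median of 0.77. The upper end is Col5a2, and among the genes well above background on all 5 arrays the highest value was 0.97. The mean of the c-Maf KO cultures was 0.18 to 0.72 above WT replicate 1, with a median of 0.34. For c-Maf KO replicate 1 alone, the value minus that of WT replicate 1 was -0.043 to 0.67, with a median of 0.19. The lower end is Col5a3, which was not well above background on any WT array. Without WT replicate 1, Col8a1 (1.26, limma adjusted p = 0.0492) and Col5a2 (limma adjusted p = 0.0297) were called, 2 of 26 collagen genes against 0.464% of all genes called higher in c-Maf KO. Col5a2 was not well above background on either of the other WT arrays, so its spread there is that of undetected signal, and c-Maf KO replicates 2 and 3 were higher by at least 2.23-fold. No collagen gene was called when any other sample was left out. The median over the 26 genes was 1.03 without WT replicate 1 and 0.52 without WT replicate 2.

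**Figure D3:**
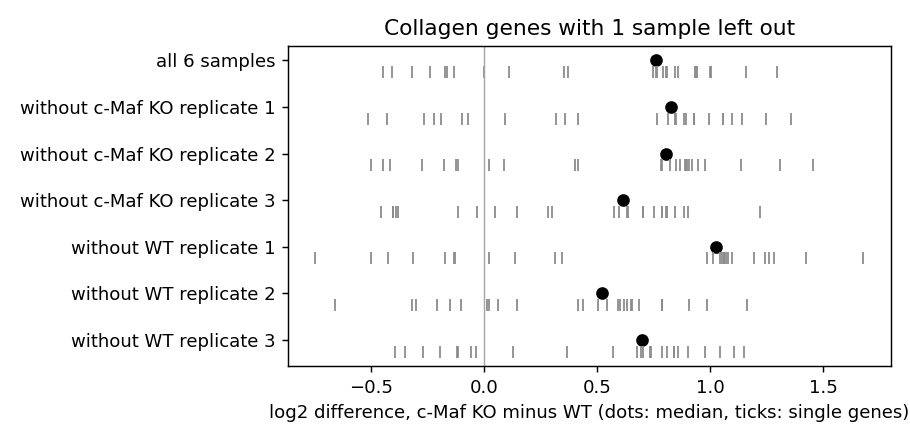
Log2 difference, c-Maf KO minus WT (x axis), with all 6 samples and with each sample left out (y axis). Dots are the median over the 26 kept collagen genes and ticks the single genes. The median lies between 0.52 and 1.03, highest without WT replicate 1 and lowest without WT replicate 2.

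Markers of fibroblasts and stromal cells other than collagens shared the order of the WT cultures with the fibrillar chains and were also highest in c-Maf KO replicate 3, while c-Maf KO replicates 1 and 2 stood in the opposite order. Of 21 such genes on the array, 18 were kept, and their mean log2 ratio was 0.23, 0.10 and 0.50 in c-Maf KO replicates 1 to 3 and -0.069, -0.80 and -0.62 in WT replicates 1 to 3. The mean over the 8 kept fibrillar chains was 0.13, 0.16 and 0.62 in c-Maf KO and -0.070, -0.88 and -0.67 in WT. Of the stromal markers, 17 of 18 had positive differences with a median of 0.87, 0 were called, and in 12 all c-Maf KO cultures were above all WT cultures, against 11.1% of all genes. Cxcl12, a chemokine of stromal cells, measured 1.28 (SE 0.21, limma adjusted p = 0.140) and Pdgfra, a growth factor receptor of fibroblasts, 1.05 (SE 0.31, limma adjusted p = 0.277). The cadherin gene Cdh11 measured 1.18 and Fbln2, a matrix glycoprotein, 0.98. Lum and Tcf21 were well above background on no array and Twist1 on 1.

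The macrophage markers had a mean log2 ratio of -0.0061, -0.16 and -0.094 in c-Maf KO and 0.018, 0.072 and 0.019 in WT, with a median difference of -0.13 and no gene called. Of the 11 markers 10 had differences below 0, and in 4 all c-Maf KO cultures were below all WT cultures, against 8.86% of all genes. The Fc receptor gene Fcgr1 measured -0.44 (SE 0.17, limma adjusted p = 0.366), the endotoxin co-receptor gene Cd14 -0.26 and the mannose receptor gene Mrc1 -0.24, each without overlap. The lysozyme gene Lyz2 was the exception at 0.33 (SE 0.10, limma adjusted p = 0.293), with all c-Maf KO cultures above all WT cultures. Of 7 stellate cell markers only Pth1r was kept (0.85), of 8 hepatocyte markers 4, of 8 endothelial markers 4, and of 7 mesothelial and epithelial markers only Cdh1 (0.86). The medians of the hepatocyte and endothelial markers were -0.057 and -0.15. Alb, Apoa1, Ttr and Hnf4a of hepatocytes, Cdh5, Tek and Lyve1 of endothelium, Lrat of stellate cells, and Krt8, Krt18, Krt19, Epcam, Msln and Upk3b of epithelium and mesothelium were well above background on no array. In RNA of whole cultures, more collagen-producing cells and more collagen RNA per cell cannot be told apart, and the part of stromal cells in the collagen differences was not tested.

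**Figure D4:**
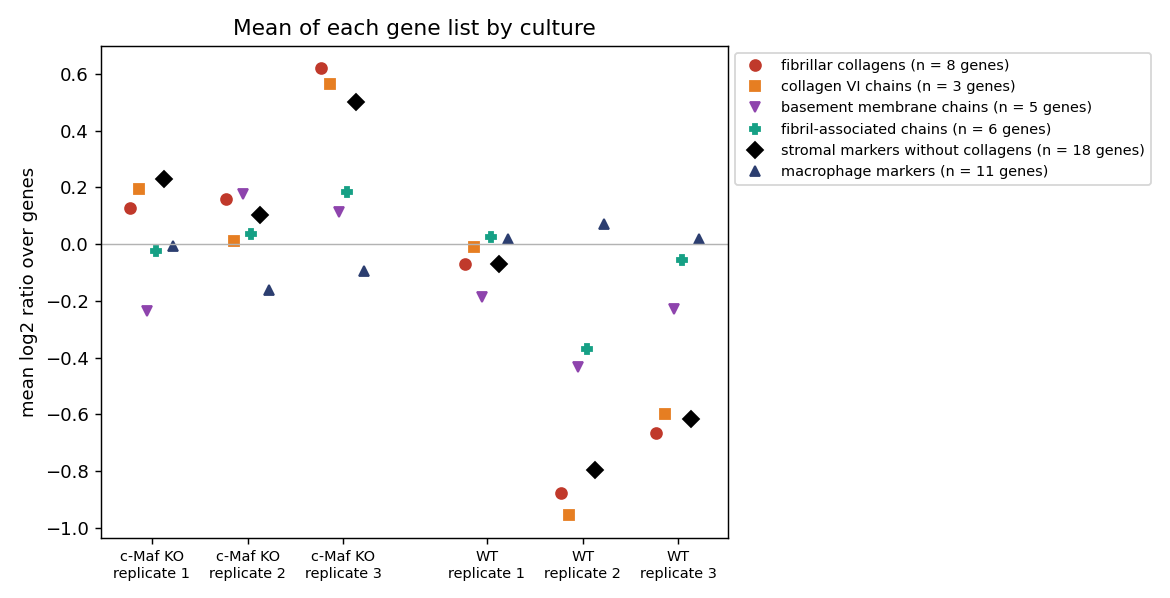
Mean log2 ratio over the kept genes of a list (y axis) in each culture (x axis, c-Maf KO at the left and WT at the right). Symbols are collagen classes, stromal markers without collagens and macrophage markers, with the number of genes in the legend. Fibrillar chains, collagen VI chains and stromal markers lie close together in each culture, between 0.50 and 0.62 in c-Maf KO replicate 3 and between -0.96 and -0.80 in WT replicate 2, while the macrophage markers stay between -0.16 and 0.072.

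The genes that process collagen were read from lists of textbook members. Of 23 entries for synthesis and assembly on the array, 21 were kept, 17 had positive differences, and none was called, with a median of 0.12. P3h4 is counted more than once here, because it also stands under its older symbol Leprel4. In 9 of the 21 the groups did not overlap, all higher in c-Maf KO, against 11.1% of all genes higher and 8.86% lower. Serpinh1, the chaperone dedicated to collagen, measured 0.81 (SE 0.26, limma adjusted p = 0.297), and its log2 ratios in c-Maf KO were 0.099, 0.11 and 0.27, against -0.099, -1.16 and -0.70 in WT. Plod2, a lysyl hydroxylase that prepares cross-links, measured 0.91. It was well above background on only 2 of the 5 arrays, so its difference and lack of overlap rest in part on signals not well above background. Fkbp10 and P3h4, partners in chain modification, measured 0.86 and 0.90. The Leprel4 entry of P3h4 measured 0.73, and its groups overlapped. Propeptide removal and cross-linking had 11 kept genes of 13, 9 with positive differences, and a median of 0.87, with none called. The lysyl oxidase genes Lox and Loxl2 measured 1.04 (SE 0.26, limma adjusted p = 0.229) and 1.21 (SE 0.34, limma adjusted p = 0.267). The procollagen protease gene Adamts2 measured 0.93 and the protease enhancer Pcolce2 1.14.

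Genes of collagen receptors were mixed, while most genes of collagen breakdown had positive differences. Among 10 kept receptor and uptake genes of 13, none was called, 7 had positive differences and the median was 0.070. The collagen-binding integrin gene Itga11 measured 1.33 (SE 0.23, limma adjusted p = 0.147), the discoidin receptors Ddr2 and Ddr1 1.05 and 0.79, and the uptake receptor gene Mrc2 0.77. In 4 of the 10 all c-Maf KO cultures were above all WT cultures, against 11.1% of all genes. In 2 of the 10 all c-Maf KO cultures were below all WT cultures, against 8.86% of all genes. These 2 were Mrc1 (-0.24) and Oscar, a collagen receptor of osteoclasts and myeloid cells (-0.25, SE 0.082, limma adjusted p = 0.309). Oscar was named after its value was seen. Among 7 kept breakdown genes of 9, none was called, 6 had positive differences and the median was 0.41. In 4 of the 7 the groups did not overlap, all higher in c-Maf KO, against 11.1% of all genes higher and 8.86% lower. The gelatinase gene Mmp2 measured 0.80, Fap, a fibroblast surface protease, 0.77, the membrane collagenase Mmp14 0.65 and the lysosomal protease Ctsk 0.29.

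**Figure D5:**
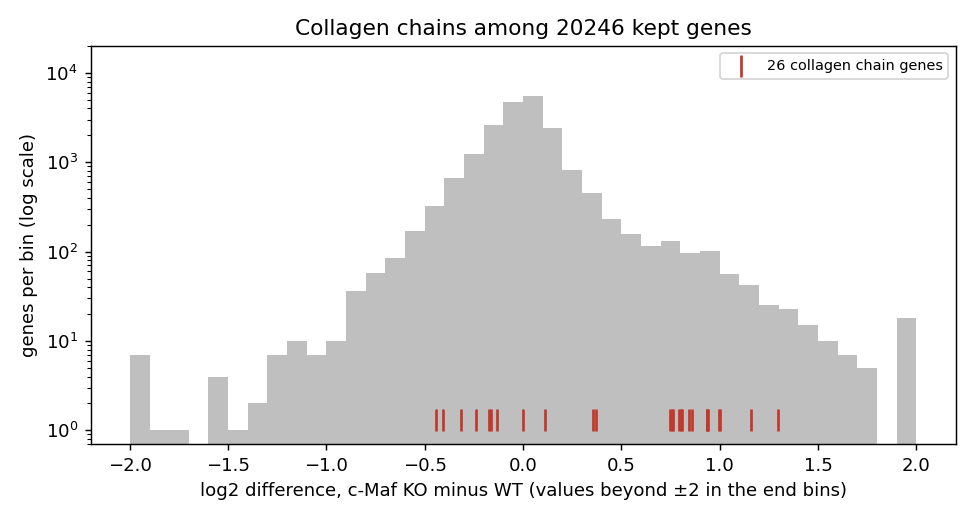
Number of genes per bin (y axis, log scale) by log2 difference, c-Maf KO minus WT (x axis), for all kept genes in grey. Red ticks are the 26 kept collagen chain genes, of which 15 lie at 0.75 or above, and the median over all genes is 0.0018.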

How the data were processed

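The authors deposited scanner intensities from Agilent Feature Extraction 10.7.3.1 (per the submitters' processing notes), made with detrending and without background correction, per the file headers. The authors' deposited table holds linear ratios. On all 5 arrays its log2 values equalled, up to a constant per probe, the log2 processed intensity over the array's 75th percentile, and each probe's values were centred on their median across the 6 samples. The constants differed between arrays by at most 0.0213 log2 units, so relative signals of c-Maf KO replicate 1 were set with them. Coordinates of probes are those of the files (mm9).

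Control spots and spots flagged as outliers (134 to 167 per array) were left out, spots of 1 probe were averaged, and 55668 of 55681 probes had a value on each array. A probe with several spots counted as well above background where at least 50% of them were. No probe was saturated. Genes were named by the array files, updated through RefSeq accessions for 28020 probes. Each gene was read from its brightest probe, kept if well above background on at least 2 of 5 arrays.

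Tests used limma 3.58.1 in R 4.3.3 (lmFit, eBayes; robust option with statmod 1.5.0) over all 20246 kept genes, without covariates, on log2 ratios of 6 samples and on log2 relative signals of 5 arrays, which are the same data less 1 sample. The fit was run on simulated data with known changes. Noise there was independent between genes, so it cannot show how the test behaves where genes share differences between cultures. The arrays lay on 1 slide, with c-Maf KO and WT in separate rows of it, so that row and genotype cannot be told apart. The collagen genes, classes, marker lists and the naming rule (every kept collagen gene, and from other lists up to 4 genes of largest difference whose groups do not overlap) were chosen with earlier results of these data known. Other alternatives are given at the end.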

Additional observations from a re-analysis of the deposited data

How the results depend on the processing

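All counts are of limma at a Benjamini-Hochberg adjusted p under 0.05. The number of collagen genes called was 0 under each alternative run, other than 0 to 2 on the 6 samples with 1 replicate left out. The number of all genes called was 7 in both sources. On the 6 samples it was 2 with no filter on dim probes, 22 with probes well above background on all arrays, 83 with a variance trend and robust option, 3 with a replicate block, and 2 to 100 with 1 replicate left out, the highest without WT replicate 1. On the 5 arrays it was 2, 1, 80 and 0 under the same settings, 21 with normexp correction (offset 50), 1 with WT replicates 1 and 3, which share a tag in their labelling, averaged, and 1 to 14 with 1 replicate left out. The collagen median was 0.057 on the 6 samples and 0.20 on the 5 arrays with no filter, which adds the 18 dim genes. Same-numbered cultures did not deviate together (correlations of -0.028, -0.061 and 0.040), which cannot tell whether they were prepared as pairs. The median was 0.43 on the 5 arrays with normexp correction and 1.08 with a replicate block, where WT replicate 1 has no partner. With 1 replicate left out it ranged from 0.52 to 1.03 on the 6 samples and from 0.53 to 1.08 on the 5 arrays. The sign turned for Col4a6 with the mean of its probes (-0.46), for Col18a1 with quantile normalization (-0.0096), and with 1 replicate left out for Col18a1 (-0.069 to 0.048) and Col4a4 (-0.45 to 0.32). The causes were not tested. Other settings kept the direction of each kept collagen gene on the 6 samples. The number of arrays and signals near background limit the 6 genes not well above background on every array.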

Other observations

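Proteins that carry a collagen-like stretch without being collagen chains did not share the pattern of the fibrillar genes. Of 29 on the array 14 were kept, 6 had positive and 8 negative differences, none was called, and the median was -0.019. C1qa and C1qc, chains of the complement starter C1q, measured -0.33 (SE 0.13, limma adjusted p = 0.382) and -0.30 (SE 0.10, limma adjusted p = 0.324), with each c-Maf KO culture below each WT culture. The scavenger receptor gene Scara3 measured 1.10 (SE 0.26, limma adjusted p = 0.228), and its log2 ratios in c-Maf KO were 0.23, 0.20 and 0.72, against -0.20, -1.09 and -0.85 in WT. Colq, the collagen tail of acetylcholinesterase, measured 0.25.

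Regulators of collagen genes were all kept, 13 of 13, and 10 had positive differences with a median of 0.20 and none called. Ccn2, a matrix protein induced by TGF-beta, measured 1.10 (SE 0.19, limma adjusted p = 0.149) and Tgfb3 0.75 (SE 0.13, limma adjusted p = 0.157). The feedback inhibitors Smad7 and Skil measured 0.34 and 0.33. Not every stromal matrix gene went the same way. Fn1, fibronectin, measured 0.0062 (limma adjusted p = 0.985) and Fbln1, a fibulin, -0.21 (limma adjusted p = 0.268), with each c-Maf KO culture below each WT culture for Fbln1. Both were named after their values were seen.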
